A study of Homo sapiens with 12 samples.

Results

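The 4 ERBB receptor genes (EGFR, ERBB2, ERBB3 and ERBB4) were read from the gene count table of a knockdown experiment in SCC-15. SCC-15 is an established human line of oral squamous cell carcinoma. Also read were 4 genes listed as negative regulators of these receptors (ERRFI1, LRIG1, LRIG3 and CBLB). The other 2, GRB2 and SHC1, are adaptor genes that couple the receptors to RAS. The 10 genes were chosen by name, with earlier results of these data known, out of 61044 gene IDs in the table. Of these 10, 9 passed the low-count filter and were tested, and ERBB4 did not. All cells were SCC-15 and all carried a short hairpin RNA: a negative-control hairpin in the NC group, or 1 of 3 hairpins against FMOD, the gene of the matrix proteoglycan fibromodulin, in the groups shRNA1, shRNA2 and shRNA3. Cells were harvested after 48 hours and each group had 3 RNA-seq libraries (n = 3, 12 in all). The labels name 1 cell line, state neither the hairpin sequences nor whether clones or pools were used, and do not say that the libraries of a group came from separate cultures, so that the p-values measure only the spread between these libraries. The series title places FMOD upstream of EGFR signalling, and the comparisons ask how each gene stood in each hairpin group against NC.

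ERBB receptors are membrane tyrosine kinases that pair when a ligand of the EGF or neuregulin family binds, and the phosphorylated tails then recruit adaptors that start RAS, PI3K and STAT signalling. ERBB2 has no known ligand of its own, ERBB3 is a weak kinase that works through its partners, and squamous epithelium and the carcinomas derived from it commonly carry much EGFR. Activated receptors are held back by ERRFI1 (also called MIG6), which binds and inhibits the kinase domain, and by the transmembrane protein LRIG1. Ubiquitin ligases of the CBL family mark receptors for degradation. LRIG3 is listed here as a paralog of LRIG1, and whether it restrains these receptors was not tested.

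Library totals lay between 17286934 and 19567192 estimated counts, and levels are given in CPM, that is, counts scaled to a common library size, here with TMM factors. The targeted gene FMOD had 2, 2 and 3 counts in the NC libraries and 0 in each of the 9 shRNA libraries, so that all groups were at or under 3 counts and no fold was computed. All 9 squamous markers were detected in every group, with a summed level between 2288 and 3252 CPM, but they moved in opposite directions. KRT5 lay between 965 and 1049 CPM in NC and between 16.5 and 90.3 CPM in the shRNA libraries. CDH1 and TP63 were also lower in every shRNA library. KRT14 (6.51 to 9.59 CPM in NC, 24.2 to 230.5 with the hairpins), KRT6A, KRT17 and DSP were higher in every shRNA library. For DSP the range was 265 to 325 CPM in NC and 571 to 1041 CPM with the hairpins. EPCAM and SFN moved in different directions between hairpins. Markers of other cell types were low in sum but moved with the groups. The 6 fibroblast markers summed to 56.7 to 59.6 CPM in NC, 15.5 to 21.1 with shRNA1, 44.2 to 48.2 with shRNA2 and 32.6 to 86.6 with shRNA3. Most of that was COL1A1, and PDGFRB went from 9.36 to 11.7 CPM in NC to 0.445 to 1.29 CPM in the shRNA libraries. DCN and COL3A1 reached at most 5 and 3 counts in any library. The 3 endothelial markers summed to 17.6 to 23.1 CPM in NC and to 3.88 to 13.3 CPM with the hairpins. Among these CDH5 was lower with the hairpins (0.519 to 2.76 CPM against 15.4 to 20.5 in NC) and PECAM1 higher (2.09 to 9.69 CPM against 0.101 to 0.197). The 4 leukocyte markers, nearly all CD68 (macrophages, and lysosomes of other cells), summed to 53.9 to 72.2 CPM in NC, 43.8 to 96.5 with shRNA1, 80.5 to 85.8 with shRNA2 and 108.6 to 236.7 with shRNA3, while PTPRC and CD3E reached at most 9 and 4 counts. The 3 melanocyte markers, mainly PMEL, summed to 6.04 to 8.37 CPM in NC and 1.29 to 9.04 CPM with the hairpins, with TYR at no more than 2 counts, and the 2 neuroendocrine markers to no more than 1.31 CPM. Their part in the results was not tested. In the shRNA3 group, libraries 1 and 2 stood apart from library 3: across tested genes the log2 levels correlated with r = 0.995 between libraries 1 and 2, but with r = 0.919 and 0.916 with library 3, and their TMM factors were 0.771 and 0.795 against 1.06. The tests of the 9 genes, the counts of genes that passed and the receptor shares are therefore given with and without those 2 libraries, while order per kilobase, ratios and likeness use all 3. Without them, a lone shRNA3 library is assumed to vary like the other groups.

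The start regions of the receptor gene with the highest level and of the 2 genes listed as inhibitors with the largest rises are printed. They are given from RefSeq (GRCh38.p14), 5′ to 3′ on the gene's strand, with no annotated exon included. EGFR is shown at chr7:55018767-55019016 (plus strand), ERRFI1 at chr1:8026310-8026559 (minus strand) and LRIG3 at chr12:58920523-58920754 (minus strand). Capitals mark matches to 4 motifs searched on both strands with overlaps allowed: the GC box (GGGCGG), the AP-1 site (TGACTCA), the CCAAT box, spelled by its name, and the TATA box (searched as TATAAA).
EGFR: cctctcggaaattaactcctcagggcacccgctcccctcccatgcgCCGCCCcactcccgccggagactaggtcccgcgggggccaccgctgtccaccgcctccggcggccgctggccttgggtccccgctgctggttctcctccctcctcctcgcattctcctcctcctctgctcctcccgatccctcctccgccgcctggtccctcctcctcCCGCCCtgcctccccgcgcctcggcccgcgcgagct
ERRFI1: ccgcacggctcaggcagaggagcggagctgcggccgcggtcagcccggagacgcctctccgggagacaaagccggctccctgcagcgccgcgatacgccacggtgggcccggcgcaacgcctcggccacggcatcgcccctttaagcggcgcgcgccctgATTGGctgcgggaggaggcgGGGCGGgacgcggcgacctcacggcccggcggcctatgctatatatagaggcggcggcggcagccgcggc
LRIG3: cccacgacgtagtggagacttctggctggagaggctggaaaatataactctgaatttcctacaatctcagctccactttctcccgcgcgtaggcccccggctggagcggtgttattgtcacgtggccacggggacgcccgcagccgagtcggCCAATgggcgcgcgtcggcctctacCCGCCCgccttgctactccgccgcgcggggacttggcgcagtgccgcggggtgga
The EGFR window held 2 GC boxes, and the ERRFI1 and LRIG3 windows held 1 GC box and 1 CCAAT box each. None of the 3 held the AP-1 letters or TATAAA. Other spellings of a TATA box were not searched, and the ERRFI1 window holds a run of TA repeats near its end. Over 35116 windows of 250 bases in the same table, 42.6% held a GC box, 32.0% a CCAAT box, 10.7% a TATA box and 4.20% the AP-1 letters. The LRIG3 stretch printed here is shorter, at 232 bases, since 18 bases in annotated exons were left out. These matches are descriptions of the sequence only.

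EGFR, ERBB2 and ERBB3 were detected, and all 3 were lower with every hairpin. EGFR (ENSG00000146648, chromosome 7, 55019021 to 55211628, plus strand, GRCh38 with GENCODE release 29, overlapped by EGFR-AS1 on the opposite strand) was at 1372, 1271 and 1283 CPM in the NC libraries, at 315, 284 and 338 CPM with shRNA1, at 225, 249.9 and 237 CPM with shRNA2, and at 134, 109 and 254 CPM with shRNA3. All 9 shRNA libraries lay below all 3 NC libraries, with shRNA3 libraries 1 and 2 lowest. EGFR fell 4.19-fold with shRNA1 (log2 fold change −2.07, SE 0.26, edgeR adjusted p = 5.265e-05). The fall was 5.51-fold with shRNA2 (log2 −2.46, SE 0.26, edgeR adjusted p = 1.693e-05) and 7.89-fold with shRNA3 (log2 −2.98, SE 0.27, edgeR adjusted p = 5.444e-06). With shRNA3 libraries 1 and 2 left out, the EGFR change with shRNA3 was −2.34 (SE 0.14, edgeR adjusted p = 2.519e-08). These are bulk libraries, in which fewer cells of a type and less RNA per cell cannot be told apart.

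ERBB2 (ENSG00000141736, chromosome 17, 39687914 to 39730426, plus strand, overlapped by MIR4728 and, antisense, by MIEN1 and PGAP3), the receptor that serves mainly as a partner of the others, had the smallest changes of the 3 detected receptors. Its level was 101, 92.8 and 97.3 CPM in NC, 60.6, 48.5 and 48.7 CPM with shRNA1, 66.5, 69.6 and 69.2 CPM with shRNA2, and 60.1, 54.3 and 67.1 CPM with shRNA3. Again no shRNA library reached an NC library. The log2 fold changes were −0.88 (SE 0.13, edgeR adjusted p = 0.000162) with shRNA1, −0.50 (SE 0.13, edgeR adjusted p = 0.00666) with shRNA2 and −0.68 (SE 0.13, edgeR adjusted p = 0.00104) with shRNA3. The shRNA2 call was lost without the low-count filter (log2 −0.46, edgeR adjusted p = 0.0529). With shRNA3, ERBB2 was at log2 −0.50 without libraries 1 and 2 of that group (edgeR adjusted p = 0.00978).

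ERBB3 (ENSG00000065361, chromosome 12, 56076799 to 56103505, plus strand, overlapped by AC034102.2 on the same strand), the neuregulin receptor with a weak kinase, showed the largest falls of the 9 tested genes. It was at 62.1, 46.5 and 53.7 CPM in NC, at 4.13, 2.18 and 1.03 CPM with shRNA1, at 4.27, 3.78 and 3.05 CPM with shRNA2, and at 3.63, 3.94 and 3.82 CPM with shRNA3. The 9 shRNA libraries held 20 to 83 counts each and lay far below the NC libraries, which held 944 to 1229. ERBB3 fell 22.0-fold with shRNA1 (log2 −4.46, SE 0.41, edgeR adjusted p = 5.134e-06), 14.6-fold with shRNA2 (log2 −3.87, SE 0.39, edgeR adjusted p = 1.166e-05) and 14.2-fold with shRNA3 (log2 −3.83, SE 0.39, edgeR adjusted p = 1.338e-05). Unlike EGFR, ERBB3 did not set shRNA3 libraries 1 and 2 apart: at 3.63 and 3.94 CPM they lay within the 1.03 to 4.27 CPM of the other 7 shRNA libraries. With that pair left out, the ERBB3 change with shRNA3 was −3.79 (edgeR adjusted p = 7.507e-05).

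ERBB4 (ENSG00000178568, chromosome 2, 211375717 to 212538841, minus strand), another neuregulin receptor, had 1, 4 and 1 counts in NC, 0, 4 and 0 with shRNA1, 1, 2 and 0 with shRNA2, and 0 in each shRNA3 library. In a library of this series 3 counts, the limit that a count of 0 allows, correspond to 0.145 to 0.223 CPM. No difference in ERBB4 was detectable at this depth.

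**Figure D1:**
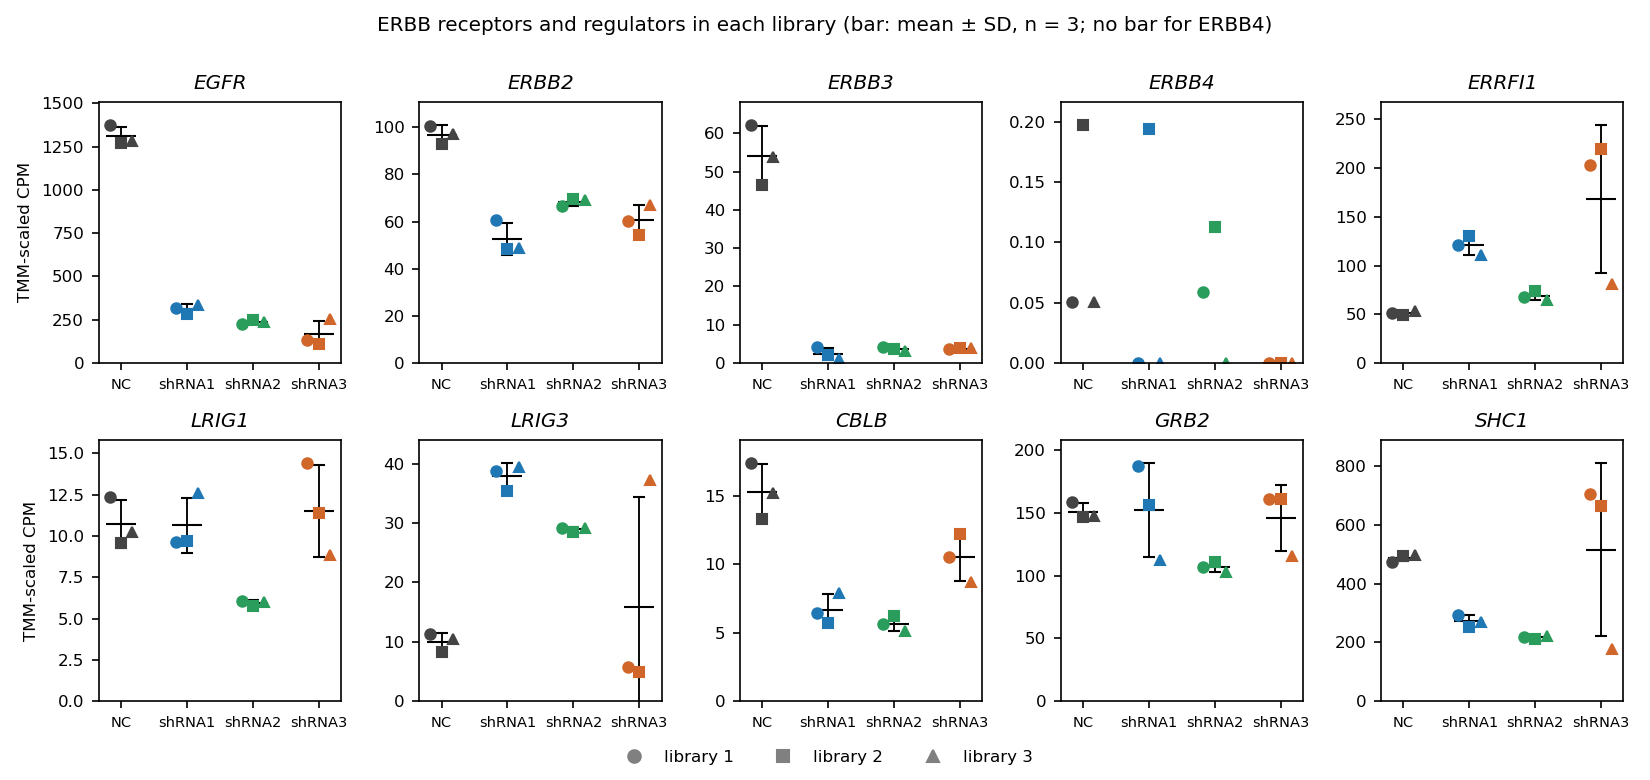
Level of each of the 10 genes in every library, in TMM-scaled CPM, by group (NC, shRNA1, shRNA2, shRNA3). Points are libraries, with a shape for each library number, and bars are group means ± SD (n = 3, none for ERBB4). EGFR, ERBB2, ERBB3 and CBLB lie below NC in all 9 shRNA libraries, and SHC1 and LRIG3 split the shRNA3 libraries into a pair and a single library.

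The 3 genes listed as inhibitors did not move together. ERRFI1 (ENSG00000116285, chromosome 1, 8004404 to 8026308, minus strand, overlapped by AL034417.4 on the opposite strand), the feedback inhibitor of the kinase domain, was at 51.1, 49.8 and 53.4 CPM in NC, at 121, 131 and 111 CPM with shRNA1, at 68.2, 73.6 and 64.7 CPM with shRNA2, and at 204, 219.7 and 81.6 CPM with shRNA3. Every shRNA library lay above every NC library. ERRFI1 rose with shRNA1 (log2 1.23, SE 0.28, edgeR adjusted p = 0.00307) and with shRNA3 (log2 1.71, SE 0.29, edgeR adjusted p = 0.000425). With shRNA2 its log2 fold change was 0.42 (SE 0.28) and missed the threshold (edgeR adjusted p = 0.228). When shRNA3 libraries 1 and 2 were left out, the shRNA2 change of 0.44 passed (edgeR adjusted p = 0.001005), and the shRNA3 change was 0.70 (edgeR adjusted p = 0.0004238).

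LRIG1 (ENSG00000144749, chromosome 3, 66378797 to 66501263, minus strand, overlapped by SLC25A26 on the opposite strand), a transmembrane inhibitor of ERBB receptors, differed from NC with shRNA2. Its level was 12.4, 9.60 and 10.3 CPM in NC, 9.65, 9.69 and 12.6 CPM with shRNA1, 6.09, 5.75 and 5.98 CPM with shRNA2, and 14.4, 11.4 and 8.84 CPM with shRNA3. The shRNA2 libraries lay below all other libraries, while the shRNA1 and shRNA3 libraries overlapped NC. LRIG1 fell with shRNA2 (log2 −0.85, SE 0.23, edgeR adjusted p = 0.00779), and its log2 fold changes were −0.01 with shRNA1 (edgeR adjusted p = 0.964) and 0.10 with shRNA3 (edgeR adjusted p = 0.726). The LRIG1 change with shRNA3 turned to −0.25 when shRNA3 libraries 1 and 2 were left out (edgeR adjusted p = 0.377).

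LRIG3 (ENSG00000139263, chromosome 12, 58872149 to 58920522, minus strand, with no overlapping gene), a paralog of LRIG1, was at 11.3, 8.22 and 10.4 CPM in NC, at 38.8, 35.4 and 39.4 CPM with shRNA1, at 29.2, 28.4 and 29.2 CPM with shRNA2, and at 5.71, 4.96 and 37.2 CPM with shRNA3. The shRNA1 and shRNA2 libraries and shRNA3 library 3 lay above all NC libraries, and shRNA3 libraries 1 and 2 below them. LRIG3 rose with shRNA1 (log2 1.92, SE 0.60, edgeR adjusted p = 0.0176) and with shRNA2 (log2 1.53, SE 0.60, edgeR adjusted p = 0.0488). With shRNA3 the log2 fold change was 0.69 (SE 0.59, edgeR adjusted p = 0.349). Without shRNA3 libraries 1 and 2 the 3 log2 fold changes were 1.94 (SE 0.13 in place of 0.60, edgeR adjusted p = 2.272e-08), 1.55 (edgeR adjusted p = 2.051e-07) and 1.93 (edgeR adjusted p = 5.651e-07). Without shRNA3 library 3, the shRNA3 change was −0.91 (edgeR adjusted p = 0.000168). The shRNA2 call in the 12-library design was lost when any of the NC or shRNA2 libraries was left out (edgeR adjusted p from 0.0842 to 0.138), and the shRNA1 call without NC library 2 or 3 (edgeR adjusted p = 0.0652 and 0.0507). Without the low-count filter both calls were lost (edgeR adjusted p = 0.0544 with shRNA1 and 0.118 with shRNA2). The shRNA2 call was lost too with RLE scaling (edgeR adjusted p = 0.0514) and at a mean of at least 50 counts (edgeR adjusted p = 0.0638), and DESeq2 gave no p for LRIG3.

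CBLB (ENSG00000114423, chromosome 3, 105655461 to 105869552, minus strand, with no overlapping gene), the ubiquitin ligase, was lower in all 9 shRNA libraries than in any NC library. It was at 17.4, 13.3 and 15.2 CPM in NC, at 6.47, 5.72 and 7.90 CPM with shRNA1, at 5.62, 6.20 and 5.15 CPM with shRNA2, and at 10.5, 12.2 and 8.74 CPM with shRNA3. CBLB fell with shRNA1 (log2 −1.19, SE 0.22, edgeR adjusted p = 0.000654) and with shRNA2 (log2 −1.43, SE 0.22, edgeR adjusted p = 0.00021). The fall with shRNA3 was smaller and close to the threshold (log2 −0.54, SE 0.21, edgeR adjusted p = 0.0491). That call was lost when any NC library, or shRNA3 library 1 or 2, was left out (edgeR adjusted p from 0.0503 to 0.162). It was also lost without the low-count filter, when replicate number entered as a block, and in the 2 groups alone (edgeR adjusted p = 0.163, 0.0825 and 0.169). With shRNA3 libraries 1 and 2 both left out the change was −0.78 (edgeR adjusted p = 0.017).

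Of the adaptors, GRB2 (ENSG00000177885, chromosome 17, 75318076 to 75405709, minus strand, overlapping several noncoding genes), which carries the RAS activator SOS to the receptor, was at 159, 147 and 148 CPM in NC. It was at 187, 156 and 113 CPM with shRNA1, at 107, 111 and 103 CPM with shRNA2, and at 161, 161 and 115 CPM with shRNA3. The shRNA2 libraries lay below NC and the other 2 hairpins overlapped it. GRB2 fell with shRNA2 (log2 −0.49, SE 0.19, edgeR adjusted p = 0.0414), a call lost when any NC or shRNA2 library was left out (edgeR adjusted p from 0.0784 to 0.139) or the low-count filter was not applied (edgeR adjusted p = 0.0857). The log2 fold changes were 0.01 with shRNA1 (edgeR adjusted p = 0.970) and −0.05 with shRNA3 (edgeR adjusted p = 0.832). In the fit without shRNA3 libraries 1 and 2, GRB2 changed by −0.48 with shRNA2 (edgeR adjusted p = 0.00919), and its log2 fold change with shRNA3 was −0.36 (edgeR adjusted p = 0.148).

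SHC1 (ENSG00000160691, chromosome 1, 154962298 to 154974395, minus strand, overlapping PYGO2 on the same strand), the adaptor that binds phosphorylated receptor tails and recruits GRB2, was at 474, 495 and 497 CPM in NC, at 295, 253 and 269 CPM with shRNA1, at 220.1, 212 and 221 CPM with shRNA2, and at 706, 662 and 178 CPM with shRNA3. The shRNA1 and shRNA2 libraries lay below NC, while shRNA3 libraries 1 and 2 lay above it and shRNA3 library 3 was the lowest of all 12. SHC1 fell with shRNA2 (log2 −1.17, SE 0.37, edgeR adjusted p = 0.0200), a call lost when any shRNA2 library was left out (edgeR adjusted p from 0.0555 to 0.0613). The log2 fold change with shRNA1 was −0.85 (SE 0.37, edgeR adjusted p = 0.0696) and with shRNA3 0.08 (SE 0.37, edgeR adjusted p = 0.875). Without shRNA3 libraries 1 and 2 the log2 fold changes were −0.83, −1.15 and −1.43, each past the threshold (edgeR adjusted p = 8.092e-07, 4.499e-08 and 6.858e-07). Without shRNA3 library 3 the shRNA3 change was 0.48 (edgeR adjusted p = 0.000135).

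**Figure D2:**
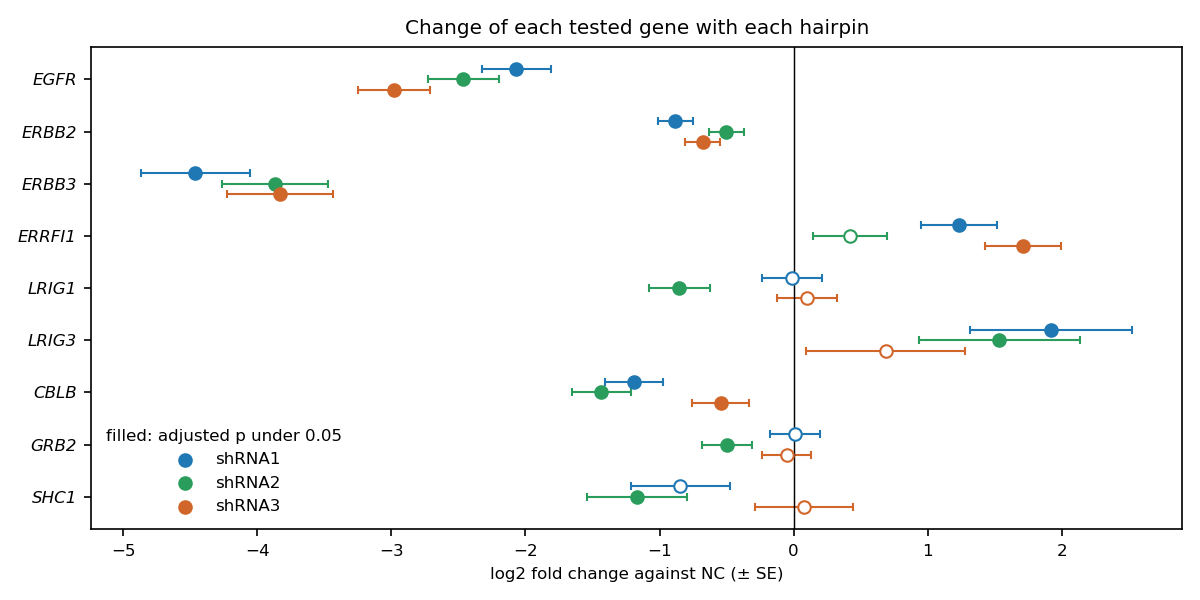
Log2 fold change against NC of each of the 9 tested genes for shRNA1, shRNA2 and shRNA3 (points) with its standard error (bars), filled where the edgeR adjusted p was under 0.05. EGFR, ERBB2, ERBB3 and CBLB lie below 0 and are filled for all 3 hairpins, and ERBB3 lies farthest left, at −4.46 with shRNA1.

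Counted together, 6 of the 9 tested genes passed the threshold with shRNA1 (2 higher, 4 lower), where 57.4% of all tested genes passed (26.8% higher, 30.6% lower). With shRNA2 8 of 9 passed (1 higher, 7 lower), against 53.0% of all tested genes (24.6% higher, 28.4% lower). With shRNA3 5 of 9 passed (1 higher, 4 lower), against 53.9% (26.4% higher, 27.6% lower). The shRNA1 and shRNA3 counts were thus near the background, and most tested genes passed in each comparison. The median log2 fold change of the 9 genes was −0.85, −0.85 and −0.05 with shRNA1, shRNA2 and shRNA3, and that of all tested genes was −0.02, −0.05 and −0.03. EGFR, ERBB2, ERBB3 and CBLB passed as lower with all 3 hairpins, 4 of 9 against 19.7% of all tested genes, although CBLB with shRNA3 passed narrowly and not under every alternative. These 4 of 9 were also the genes for which every shRNA library lay below every NC library (25.8% of all tested genes), and ERRFI1 was the 1 gene for which every shRNA library lay above (19.0%). The 3 comparisons share the NC libraries, and the genes were chosen with earlier results of these data known. Set against the shares of all tested genes, these counts are therefore a description only. Without shRNA3 libraries 1 and 2, 7, 9 and 7 of the 9 genes passed with shRNA1, shRNA2 and shRNA3, against 71.3%, 68.1% and 56.9% of all tested genes.

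Between hairpins, 1 of the 9 genes differed between shRNA1 and shRNA2 (12.3% of all tested genes did), 2 between shRNA1 and shRNA3 (30.0%) and 3 between shRNA2 and shRNA3 (8.34%). The pair of shRNA3 libraries that stood apart lay outside the range of the other 7 shRNA libraries for EGFR, ERRFI1, LRIG3, CBLB and SHC1, which is 5 of 9 genes, and for 10300 of 17532 tested genes (58.8%). For EGFR these 2 libraries were at 134 and 109 CPM and the other 7 at 225 to 338 CPM. ERRFI1 stood at 204 and 219.7 CPM in them and at 64.7 to 131 CPM in the others.

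The share that each receptor held in the summed receptor level was computed per kilobase of exon, so that genes of different length can be compared. In NC the 4 receptors summed to 119.9 ± 5.52 CPM per kb (SD, n = 3), and EGFR held 87.2% ± 0.508, ERBB2 7.83% ± 0.145 and ERBB3 4.98% ± 0.501 of it. The sum was 30.3 ± 2.32 CPM per kb with shRNA1, 26.0 ± 1.11 with shRNA2 and 19.5 ± 6.74 with shRNA3. EGFR remained the most abundant receptor in every library, but its share was lower than in NC. It was 86.8%, 87.8% and 87.0% in the NC libraries, 79.9%, 82.1% and 84.8% with shRNA1, 72.3%, 73.6% and 72.8% with shRNA2, and 63.3%, 60.5% and 74.5% with shRNA3. All 9 shRNA libraries lay below all 3 NC libraries, with a difference of means of −13.4 percentage points (exact two-sided permutation test over 220 splits, p = 0.0227). The test treats the 9 shRNA libraries as 1 group, although they come from 3 hairpins whose shares differed. Its p therefore describes these libraries only, not an effect of FMOD hairpins with n = 9. The smallest p this test allows is 0.00455. ERBB2 held 16.8% ± 1.90 with shRNA1, 25.5% ± 0.569 with shRNA2 and 31.6% ± 6.72 with shRNA3, and ERBB3 held 0.894% ± 0.546, 1.58% ± 0.301 and 2.32% ± 0.732. Leaving out shRNA3 libraries 1 and 2, the difference in EGFR share was −10.05 points (exact two-sided permutation test, p = 0.0167).

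**Figure D3:**
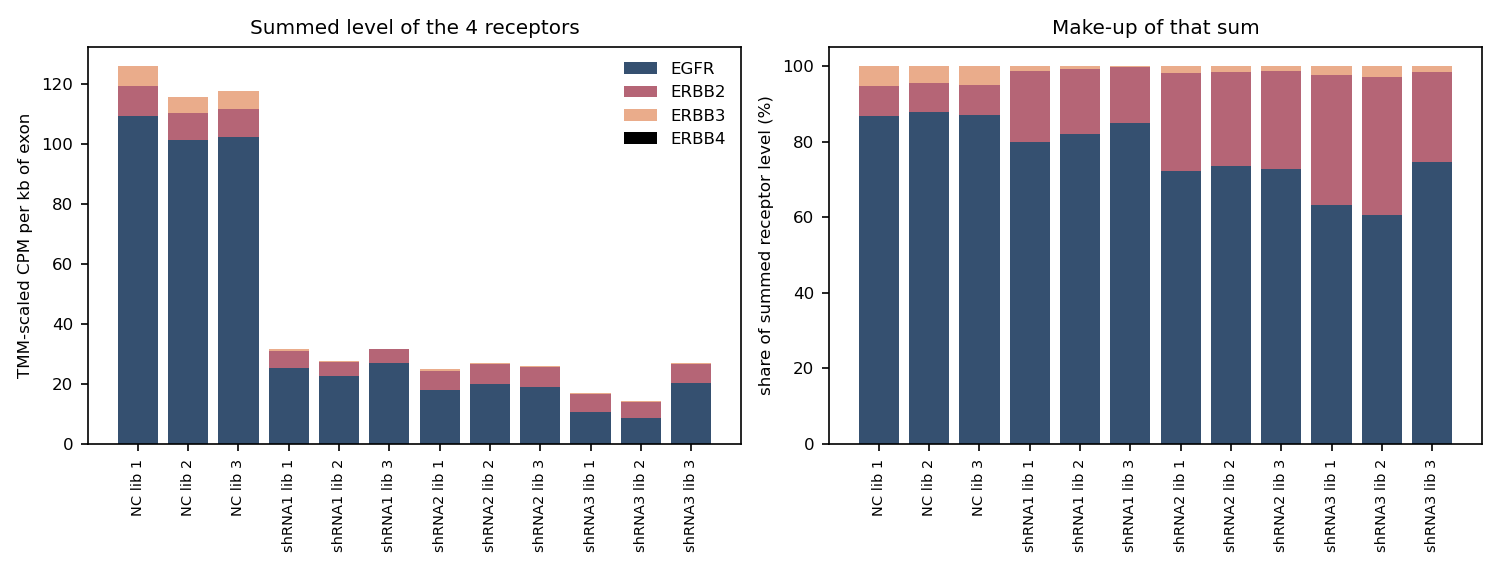
Summed level of the ERBB receptors in every library (TMM-scaled CPM per kilobase of exon, left) and the share of each receptor in that sum, in percent (right), as stacked bars. The NC sums average 119.9 CPM per kb and those of the hairpin groups 19.5 to 30.3, and the EGFR share is below the 86.8% of the lowest NC library in all 9 shRNA libraries.

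By mean level on the same per-kilobase scale, SHC1 stood highest of the 10 genes in every group. In NC the order was SHC1 (113 CPM per kb), EGFR (105), GRB2 (32.1), ERRFI1 (12.3), ERBB2 (9.39), ERBB3 (5.98), LRIG3 (1.69), LRIG1 (1.53), CBLB (1.25) and ERBB4 (0.00764). The NC libraries of SHC1 (109 to 115 CPM per kb) and EGFR (102 to 109.5 CPM per kb) overlapped, and so did those of LRIG3 (1.40 to 1.92), LRIG1 (1.37 to 1.76) and CBLB (1.08 to 1.42). With the hairpins EGFR dropped behind GRB2: the levels were 25.0 against 32.3 CPM per kb with shRNA1, 19.0 against 22.7 with shRNA2, and 13.2 against 30.9 with shRNA3. The libraries of these genes overlapped with shRNA1 (22.7 to 27.0 and 23.9 to 39.7 CPM per kb) and did not with shRNA2 or shRNA3. The mean of ERRFI1 was above that of EGFR with shRNA1 (28.9 CPM per kb) and shRNA3 (40.2 CPM per kb) and below it with shRNA2 (16.4 CPM per kb). With shRNA1 the libraries of ERRFI1 (26.5 to 31.2 CPM per kb) and EGFR (22.7 to 27.0) overlapped. With shRNA3 the order rested on libraries 1 and 2, since library 3 held the lowest ERRFI1 (19.5 CPM per kb) and the highest EGFR (20.3 CPM per kb) of that group.

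The ratio of each regulator to EGFR was higher in every shRNA library than the NC mean ratio. For ERRFI1 the ratio was 9.77, 11.7 and 8.34 times the NC ratio in the shRNA1 libraries, 7.70, 7.50 and 6.95 times in the shRNA2 libraries, and 38.6, 51.1 and 8.19 times in the shRNA3 libraries. LRIG3 gave 16.3, 16.5 and 15.4 times with shRNA1, 17.1, 15.0 and 16.3 times with shRNA2, and 5.62, 6.00 and 19.4 times with shRNA3. The shRNA3 pair that stood apart was thus high for ERRFI1 and low for LRIG3. LRIG1 gave 3.75, 4.18 and 4.57 times with shRNA1, 3.31, 2.82 and 3.10 times with shRNA2, and 13.1, 12.7 and 4.27 times with shRNA3. CBLB, which itself fell, gave 1.77, 1.73 and 2.01 times with shRNA1, 2.15, 2.14 and 1.87 times with shRNA2, and 6.74, 9.64 and 2.97 times with shRNA3. These ratios carry no test, since the fall of EGFR enters each of them.

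**Figure D4:**
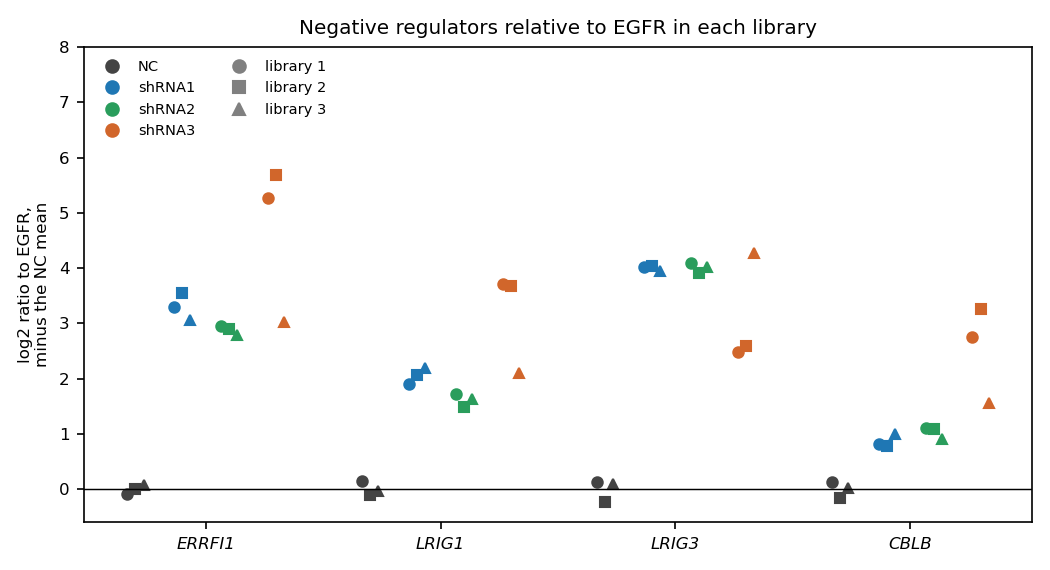
Log2 ratio of ERRFI1, LRIG1, LRIG3 and CBLB to EGFR in every library, minus the mean of the 3 NC libraries. Colours are groups and shapes are library numbers. All 9 shRNA libraries lie above NC for each gene, from 1.73-fold for CBLB to 51.1-fold for ERRFI1 on the linear scale.

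A further 57 genes of the ERBB pathway were listed by role, also with earlier results of these data known, and 56 were tested. With shRNA1 25 passed (12 higher, 13 lower), against 57.4% of all tested genes. With shRNA2 33 passed (15 higher, 18 lower), against 53.0%, and with shRNA3 34 (13 higher, 21 lower), against 53.9%. These shares of the list were 44.6%, 58.9% and 60.7%. Of the 56, 8 were higher and 13 lower with all 3 hairpins, and for these 21 no shRNA library reached an NC library. Over all tested genes 16.0% were higher and 19.7% lower with all 3 hairpins, and 35.1% passed in 1 direction without overlap. Leaving out shRNA3 libraries 1 and 2, 38, 41 and 29 of the listed genes passed, against 71.3%, 68.1% and 56.9% of all tested genes. The 18 genes named by rank in the next paragraphs all passed in the same direction with each hairpin in that fit too, and their group means below use all 3 shRNA3 libraries. Leaving that pair out moved the fold change with shRNA3 by more than 1.5 times for 5 of the 18: on the log2 scale, from −5.03 to −6.38 for FYN, −6.12 to −5.03 for STAT5A, −2.90 to −4.19 for CBLC, 2.24 to 1.50 for PTPRJ, and for MUC4 as given below.

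Of 11 tested adaptor and docking genes, 3 were lower and 0 higher with all 3 hairpins. GAB2, a docking protein that recruits PI3K and SHP2, went from 35.9 ± 4.24 CPM in NC to 3.03 ± 0.524, 3.88 ± 0.0446 and 6.27 ± 0.744 CPM in the 3 hairpin groups, in the order shRNA1, shRNA2, shRNA3 that is kept below (SD, n = 3; log2 −3.56, −3.21 and −2.52; edgeR adjusted p = 2.88e-07, 4.642e-07 and 2.149e-06). SHC3, a relative of SHC1, went from 8.55 CPM in NC to 1.12, 2.57 and 2.90 CPM with the hairpins. NCK2, an adaptor to the actin cytoskeleton, had an NC level of 38.2 CPM and 16.0, 19.9 and 13.9 CPM with the hairpins.

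Of 9 kinases and effectors, 5 were lower and 0 higher with all 3 hairpins. FYN, a SRC-family kinase, went from 30.2 ± 0.762 CPM in NC to 0.893 ± 0.529, 0.265 ± 0.213 and 0.946 ± 0.723 CPM with the hairpins, which is 2 to 27 counts per shRNA library (edgeR adjusted p = 3.851e-05, 1.238e-05 and 4.828e-05). STAT5A, a transcription factor activated by tyrosine kinases, was at 18.4 CPM in NC and had 0 to 16 counts in the shRNA libraries. For comparison, its paralog STAT5B, picked after its values were seen, had an NC level of 67.0 CPM and then 74.8, 127 and 93.0 CPM, a rise that passed with shRNA2 and shRNA3. YES1, another SRC-family kinase, went from 130.0 to 52.1, 40.2 and 35.7 CPM, and PLCG2, a phospholipase, from 11.8 to 4.87, 6.17 and 5.61 CPM.

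Of 14 ubiquitin and trafficking genes, 4 were higher and 1 lower with all 3 hairpins. CBLC, the epithelial relative of CBLB, was the gene that fell, from an NC level of 74.3 ± 3.03 CPM to 6.72 ± 2.50, 8.81 ± 1.06 and 10.0 ± 5.28 CPM (SD, n = 3; log2 −3.47, −3.08 and −2.90; edgeR adjusted p = 3.384e-05, 7.466e-05 and 0.000114). CBL itself, picked after its values were seen, had an NC level of 43.8 CPM and then 77.7, 57.4 and 46.3 CPM, a rise that passed with shRNA1 and shRNA2 (edgeR adjusted p = 0.000704 and 0.046) and missed with shRNA3 (edgeR adjusted p = 0.664). UBASH3B, which counters CBL-driven removal of EGFR, rose from 9.14 ± 0.415 CPM to 70.4 ± 5.55, 36.9 ± 0.971 and 22.0 ± 8.43 CPM (edgeR adjusted p = 2.014e-06, 2.41e-05 and 0.000602). The shRNA3 libraries of UBASH3B were at 16.8, 17.4 and 31.7 CPM. SH3KBP1, a CBL-binding scaffold of endocytosis, rose from 27.7 to 60.3, 53.8 and 80.1 CPM. RAB5A, a GTPase of early endosomes, rose from 30.4 to 75.2, 52.0 and 70.7 CPM.

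Of 14 phosphatases and other inhibitors, 1 was higher and 2 lower with all 3 hairpins. PTPRJ, a receptor phosphatase that acts on EGFR, rose from 16.4 to 36.8, 32.9 and 77.6 CPM, with a spread of 45.3 to 93.8 CPM among the shRNA3 libraries. PTPN2 fell from 54.0 to 26.2, 18.7 and 19.0 CPM and PTPN6 from 34.7 to 12.4, 19.3 and 21.8 CPM, both cytoplasmic tyrosine phosphatases. Of 8 membrane partners, 3 were higher and 2 lower. MUC4, a mucin that binds ERBB2, rose from 2.54 ± 0.510 CPM to 39.1 ± 17.3, 95.5 ± 0.568 and 219 ± 158 CPM (SD, n = 3; edgeR adjusted p = 0.000254, 4.928e-05 and 1.673e-05). In the shRNA3 libraries MUC4 was at 361.5, 247 and 48.5 CPM, and its log2 fold change with shRNA3 was 6.42 with all 3 and 4.28 without libraries 1 and 2 (edgeR adjusted p = 2.035e-06). CDH1 (E-cadherin), also in the list of squamous markers, fell from 323 ± 12.7 CPM to 38.2 ± 2.87, 53.4 ± 2.35 and 66.1 ± 19.0 CPM (edgeR adjusted p = 5.361e-07, 1.464e-06 and 3.42e-06). HSP90AA1, a chaperone of ERBB2, rose from 493 to 1362, 1874 and 955 CPM, and CD44, a hyaluronan receptor, fell from 1205 to 696, 615 and 805 CPM.

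**Figure D5:**
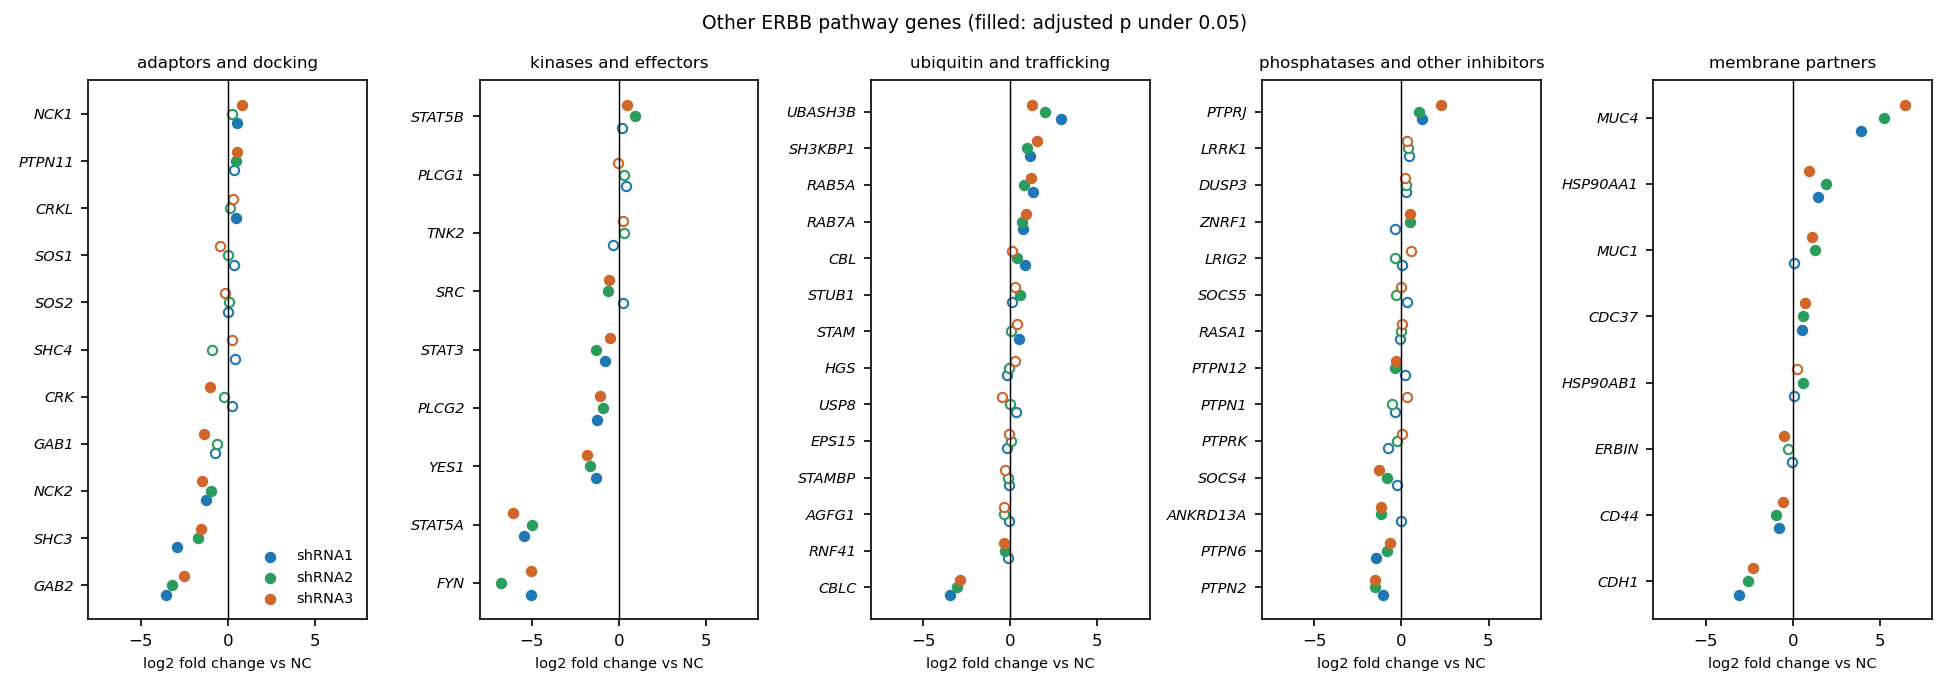
Log2 fold change against NC of the 56 tested pathway genes for shRNA1, shRNA2 and shRNA3, in 5 panels by role, filled where the edgeR adjusted p was under 0.05. FYN and STAT5A lie farthest to the left and MUC4 farthest to the right.

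The genes whose levels followed EGFR most closely over the 12 libraries were ARHGEF17 (r = 0.994), SEL1L (r = 0.990), TGIF1 (r = 0.989) and ANKS6 (r = 0.989), by Pearson correlation of log2(CPM + 1) among 10188 genes with a mean of at least 10 CPM. Those closest to ERBB3 were CAMSAP3 (r = 0.991), NUDT22 (r = 0.990), CHMP1B (r = 0.988) and LEKR1 (r = 0.986). All libraries share the split between NC and the hairpins, and 128 genes exceeded r = 0.95 with EGFR and 200 genes with ERBB3. Within the 9 shRNA libraries alone the values were 0.961, 0.967, 0.9504 and 0.922 for the 4 genes nearest EGFR. For the 4 nearest ERBB3, where the shRNA libraries hold few counts, they were 0.880, 0.882, 0.707 and 0.723.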

How the data were processed

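RNA-seq libraries of SCC-15 cells were grouped by their titles (4 groups, 3 libraries each). The authors deposited 1 table of estimated counts per gene for all 12 libraries, unscaled, in which 13.8% of the values are not whole. HISAT2, HTSeq 0.11.2 and GRCh38 are named in the submitters' processing notes, with no role given. Which annotation was counted, and whether with strand, is not given in the sources used here, so that reads of overlapping genes may be shared, and antisense reads cannot be told apart. Each of the 12 columns matched 1 sample title (columns not matched: 0). Totals ran from 17286934 to 19567192 counts, and intervals or floors from them cover counting error only.

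Estimated counts were rounded to whole numbers, scaled by TMM and filtered with filterByExpr (minimum count 10, minimum total 15), which left 17532 genes. Genes were compared by the quasi-likelihood test of edgeR 4.0.16 in R 4.3.3 (two-sided, robust, 1 model of the 4 groups, 8 residual degrees of freedom, common biological coefficient of variation 0.289). Benjamini-Hochberg adjustment covered all 17532 genes (threshold 0.05), and its result is the value called edgeR adjusted p. A CPM value is TMM-scaled. Per-kilobase levels use the exon union length in GENCODE release 29. The method was also run on simulated counts, in which few genes were changed, in shRNA1 only, at a fixed spread. Most genes passed in the real data, so that run does not check the scaling or the calls made here. Alternatives were RLE scaling, no low-count filter, a mean of at least 50 counts, the DESeq2 Wald test (DESeq2 1.42.0), a replicate block, only the 2 groups compared, stricter thresholds and libraries left out. Fits of shRNA1 and shRNA2 against NC without shRNA3 libraries 1 and 2 were chosen after seeing the data.

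The 10 genes and the pathway and marker lists were chosen with earlier results of these data known. Of the pathway list, the text names genes that passed with all 3 hairpins in 1 direction without overlap with NC, at most 4 per role with the largest change in the hairpin that changed them least. For likeness it names the 4 genes with the highest r to EGFR and to ERBB3 (pseudocount 1, mean of at least 10 CPM). Promoter windows matched 9 of the 10 genes by symbol.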

Additional observations from a re-analysis of the deposited data

Results flagged for a closer look

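Of the 9 tested genes, 4 differed between hairpins in 6 direct contrasts (edgeR's quasi-likelihood test, Benjamini-Hochberg adjustment, 12 libraries). EGFR was higher with shRNA1 than with shRNA3, by 0.91 on the log2 scale (edgeR adjusted p = 0.0226). ERRFI1 was lower with shRNA2 than with shRNA3 (log2 −1.29, edgeR adjusted p = 0.0314). LRIG1 was higher with shRNA1 than with shRNA2 (log2 0.84, edgeR adjusted p = 0.0351) and lower with shRNA2 than with shRNA3 (log2 −0.95, edgeR adjusted p = 0.0375). CBLB was lower with shRNA1 than with shRNA3 (log2 −0.65, edgeR adjusted p = 0.0422) and lower with shRNA2 than with shRNA3 (log2 −0.89, edgeR adjusted p = 0.0385). The 5 contrasts with shRNA3 missed the threshold without its libraries 1 and 2: EGFR gave 0.29 (edgeR adjusted p = 0.171), ERRFI1 −0.26 (edgeR adjusted p = 0.337), LRIG1 −0.59 (edgeR adjusted p = 0.228), and CBLB −0.40 and −0.64 (edgeR adjusted p = 0.332 and 0.204). The LRIG1 contrast of shRNA1 with shRNA2 also missed it when any shRNA1 or shRNA2 library was left out (edgeR adjusted p from 0.0711 to 0.124). In the fit without shRNA3 libraries 1 and 2, 2 other contrasts of shRNA1 with shRNA3 passed, both higher with shRNA1: ERRFI1 at 0.55 (edgeR adjusted p = 0.0262) and SHC1 at 0.60 (edgeR adjusted p = 0.00891). With all 12 libraries these 2 contrasts had the opposite sign and missed the threshold, at −0.48 (edgeR adjusted p = 0.201) and −0.92 (edgeR adjusted p = 0.0776).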

How the results depend on the processing

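EGFR and ERBB3 kept their direction and their call against NC with every hairpin under all 15 alternatives. The count of listed genes called against NC with shRNA2 was 5 without the low-count filter, where ERBB4 entered and 10 were tested. It was 5 of 9 at adjusted p under 0.01 and with a log2 change of at least 1. With shRNA3 it was 3 of 9 at that log2 change. Shares of all tested genes at the stricter thresholds are not given here, so those counts have no background beside them. Without the filter 9217 of 33435 genes passed with shRNA2. Leaving out a library gave 5 to 6 (shRNA1), 5 to 6 (shRNA2) and 4 to 7 (shRNA3). Over all tested genes those fits called 8677 to 9698 (shRNA1), 7960 to 8174 (shRNA2) and 8314 to 13330 (shRNA3), of 18039 to 18308. Between hairpins, shRNA1 against shRNA2 gave 0 without the filter and 7 in the 2 groups alone. It gave 0 at each stricter threshold and 0 to 1 with a library left out. By DESeq2 it gave 3 of 8 listed genes, and 3464 of 17286 genes passed in that contrast. For shRNA1 against shRNA3 the counts were 1 without the filter, 0 in the 2 groups alone, 0 at each stricter threshold and 0 to 5 with a library left out. For shRNA2 against shRNA3 they were 1, 0, 0 (p under 0.01) and 1 (log2), and 0 to 8. Over all genes 1420, 3955 and 911 of 33435 passed without the filter, in the order given here. In the 2 groups alone it was 6251 of 15256, 0 of 15326 and 0 of 15116. Without shRNA3 library 3, which gave the 5 and the 8, 11573 and 10800 of 18242 tested genes passed. The counts of listed genes did not always move along with the number over all tested genes. With shRNA2 against NC, 9290 of 17532 genes passed with the filter and 9217 of 33435 without it. The count of listed genes went from 8 to 5. Where edgeR called 0, 1 to 6 of the listed genes had an unadjusted p under 0.05. Of the pathway list, 15 (shRNA2) and 19 (shRNA3) passed with a log2 change of at least 1, 38 with shRNA1 without shRNA3 libraries 1 and 2, and 22 to 28, 27 to 29 and 28 to 48 with a library left out. The median r of the named likeness genes was 0.990, 0.846 by Spearman and 0.902 within the shRNA libraries. The EGFR share difference ran from −14.8 to −11.8 points with a library left out. The causes of these shifts were not tested.

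Replicate numbers did not pair the libraries: deviations of same-numbered libraries correlated at −0.0107 on average (18 pairs, −0.0963 to 0.0968) and others at 0.00443. With a replicate block 6, 8 and 4 of the 9 genes passed against NC, and 25, 30 and 32 of the pathway list. Between hairpins 0, 1 and 0 of the 9 passed (shRNA1 against shRNA2, shRNA1 against shRNA3, shRNA2 against shRNA3). Of all 17532 tested genes, 9689, 8949 and 9116 passed against NC with the block, and 1498, 4458 and 378 between hairpins.

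Values that changed sign were mostly near 0. LRIG1 with shRNA1 against NC was 0.011 without the filter, −0.14 to 0.10 with a library left out and 0.00065 without shRNA3 libraries 1 and 2. GRB2 with shRNA1 was −0.018 with RLE scaling and by DESeq2, −0.017 with the block, −0.085 at a mean of 50 counts and −0.16 to 0.19 with a library left out. GRB2 with shRNA3 was 0.022 in the 2 groups alone and −0.076 to 0.088 with a library left out. SHC1 with shRNA3 was −0.017 with the block. With a library left out, the ranges with shRNA3 against NC were −0.028 to 0.26 (LRIG1), −0.91 to 1.16 (LRIG3) and −0.15 to 0.48 (SHC1). Those between shRNA1 and shRNA3 were −0.26 to 0.036 (LRIG1) and −0.11 to 0.24 (GRB2), and between shRNA2 and shRNA3 −0.15 to 0.061 (ERBB3). Without shRNA3 libraries 1 and 2, LRIG1 and SHC1 with shRNA3 were −0.25 and −1.43 against NC. For shRNA1 against shRNA3 ERRFI1 was then 0.55, LRIG1 0.25 and SHC1 0.60, and for shRNA2 against shRNA3 EGFR was −0.11, LRIG3 −0.37 and SHC1 0.28.

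The limits are 3 libraries per group, an shRNA3 group split in itself, a targeted gene at the limit of detection in NC, and a background in which most genes passed. ERBB4 could not be assessed at this depth, and ERBB3 rests on 20 to 83 counts per shRNA library.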
